A study of Mus musculus with 6 samples.

Results

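The 10 genes described here encode transcription factors and cofactors of the erythroid and megakaryocyte lineages: Gata1, its cofactor gene Zfpm1 (FOG1), Klf1, Nfe2, Gfi1b, and the SCL complex genes Tal1, Lmo2, Ldb1, Lyl1 and Cbfa2t3. They were chosen by name, with earlier results of these data known, and each RefSeq accession of the deposited tables was mapped to its symbol. All 10 were found, each as 1 of the 23146 entries, and none overlapped the locus of another entry. Total RNA of EML cells gave 6 sequencing libraries, and all values are the authors' RPKM, that is reads scaled by transcript length and by the number of mapped reads. EML is a mouse haematopoietic progenitor line, immortalised with a dominant-negative retinoic acid receptor, and all libraries came from cells kept in stem cell factor, strain BDF1. The groups were wild-type cells serving as the knockdown control (2 libraries, called the control pair), KAI1 knockdown cells (2 libraries, called the knockdown pair), wild-type cells serving as the overexpression control (1 library) and KAI1 overexpressing cells (1 library). KAI1 is a tetraspanin membrane protein encoded by Cd82. How KAI1 was knocked down or overexpressed, and whether cells of 1 clone or a pool were used, is stated in no source used here. Separate cultures are not stated, and p-values therefore reflect only library-to-library spread, which may be technical.

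GATA1 is a zinc finger factor that binds GATA motifs in erythroid, megakaryocyte, mast and eosinophil cells. Its cofactor FOG1 binds GATA1 without touching DNA and is needed for red cell and platelet development, while mast cells form with FOG1 low. TAL1 (SCL) or its relative LYL1 pairs with an E protein, and LMO2 and LDB1 bridge this pair to GATA1 in 1 complex; CBFA2T3 (ETO2) is a corepressor in it. KLF1 binds CACCC motifs and drives globin and red cell membrane genes, NFE2 pairs with small Maf proteins and drives globin and platelet genes, and GFI1B is a repressor needed in both lineages.

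The estimated depth ran from 9460000 to 24800000 reads per library, taken from the steps that single reads leave in low RPKM values. Cd82 stood at 43.9 and 13.8 RPKM in the control pair, 7.65 and 6.91 RPKM in the knockdown pair, 11.9 RPKM in the overexpression control and 15.2 RPKM in the KAI1 overexpression. limma's adjusted p for its knockdown difference was 0.83, and the KAI1 overexpression lay 1.26-fold above its control, with 1 library on each side. The knockdown controls were unlike each other: on the RPKM + 1 scale used here for all fold changes, replicate 1 lay at least 2-fold above replicate 2 in 12.7% and at least 2-fold below it in 8.50% of 10112 entries. The labels call the cell type basophil. Mast cell and basophil genes such as Cpa3 and Fcer1g were high in every library (at least 2246 and 1488 RPKM), whereas Fcer1a, the IgE-binding chain of the IgE receptor, stood at 24.2 RPKM in replicate 1 of the control pair, 7.41 RPKM in the KAI1 overexpression and at most 0.289 RPKM in the other 4. Erythroid and megakaryocyte genes were present in part. Itga2b (CD41) stood at 118 to 254 RPKM, and of the platelet genes Pf4 at 67.9 to 1541 RPKM, Ppbp at 20.6 to 550 RPKM, Gp1ba at 6.33 to 54.9 RPKM and Gp9 at 0.467 to 43.6 RPKM, while Gp6 and Clec1b were listed at 0 in all 6 libraries and Tubb1 in 5. Alas2 and Slc4a1, genes of late red cell precursors, stood at no more than 2.59 and 0.237 RPKM.

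The stretches before the transcript starts of 4 members are shown because Klf1, Zfpm1 and Gfi1b were at least 2-fold lower with KAI1 overexpressed than in the matching control, and Gata1, whose product acts with theirs, was not. Lmo2 was also at least 2-fold lower; Nfe2 and Lmo2 are the members with no entry matched. Each is the run of 250 bases before the start, from RefSeq on GRCm38.p6, 5′ to 3′ on the gene's strand. Capitals mark matches on either strand to CACCC and to a GATA word (AGATAA or else AGATAG, and TGATAA or else TGATAG), so that reverse complements are also in capitals. No GATA match overlaps a CACCC match in these 4 runs. The build of the expression tables is mm9, so these positions are not those of the tables.
Klf1 (chr8:84901732-84901981, + strand): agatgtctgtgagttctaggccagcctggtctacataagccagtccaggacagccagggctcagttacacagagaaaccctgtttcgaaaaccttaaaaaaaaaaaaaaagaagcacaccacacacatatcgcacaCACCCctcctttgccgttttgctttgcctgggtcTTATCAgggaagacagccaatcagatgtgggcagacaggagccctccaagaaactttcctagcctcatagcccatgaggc
Zfpm1 (chr8:122281891-122282140, + strand): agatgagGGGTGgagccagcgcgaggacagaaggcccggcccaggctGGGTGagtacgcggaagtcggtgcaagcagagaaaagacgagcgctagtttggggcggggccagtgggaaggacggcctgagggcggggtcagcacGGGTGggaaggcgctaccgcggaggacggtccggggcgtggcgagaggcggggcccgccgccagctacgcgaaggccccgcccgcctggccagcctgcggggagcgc
Gfi1b (chr2:28621983-28622232, − strand): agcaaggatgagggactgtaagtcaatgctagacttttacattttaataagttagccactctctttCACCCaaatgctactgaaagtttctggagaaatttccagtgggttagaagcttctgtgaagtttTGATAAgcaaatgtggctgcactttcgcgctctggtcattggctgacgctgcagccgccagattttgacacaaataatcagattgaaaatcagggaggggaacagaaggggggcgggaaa
Gata1 (chrX:7967911-7968160, − strand): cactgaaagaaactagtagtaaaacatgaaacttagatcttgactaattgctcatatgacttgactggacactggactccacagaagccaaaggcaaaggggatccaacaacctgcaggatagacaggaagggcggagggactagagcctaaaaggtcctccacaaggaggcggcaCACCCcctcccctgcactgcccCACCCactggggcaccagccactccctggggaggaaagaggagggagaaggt

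In the Klf1 run a CACCC match begins 114 bases before the start, a GATA match 80 bases before it and an E-box match (CAGNTG, the motif bound by TAL1 with an E protein) 59 bases before it. The Gfi1b run held 1 GATA match, 120 bases before the start, and 1 CACCC match, 184 bases before it. The Zfpm1 and Gata1 runs held no GATA match and 3 and 2 CACCC matches. Of the 10 members 8 were matched in the promoter table, with 12 starts. A GATA match stood before 5 of the 12 starts, a CACCC match before 11, an E-box match before 5 and a match to TGANTCA, the core of the NFE2 motif, before 0. Of all 32841 runs of the same length, 26.5% held a GATA match, 52.0% a CACCC match, 44.8% an E-box match and 6.75% a TGANTCA match. No search for other motifs or windows was made.

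**Figure D1:**
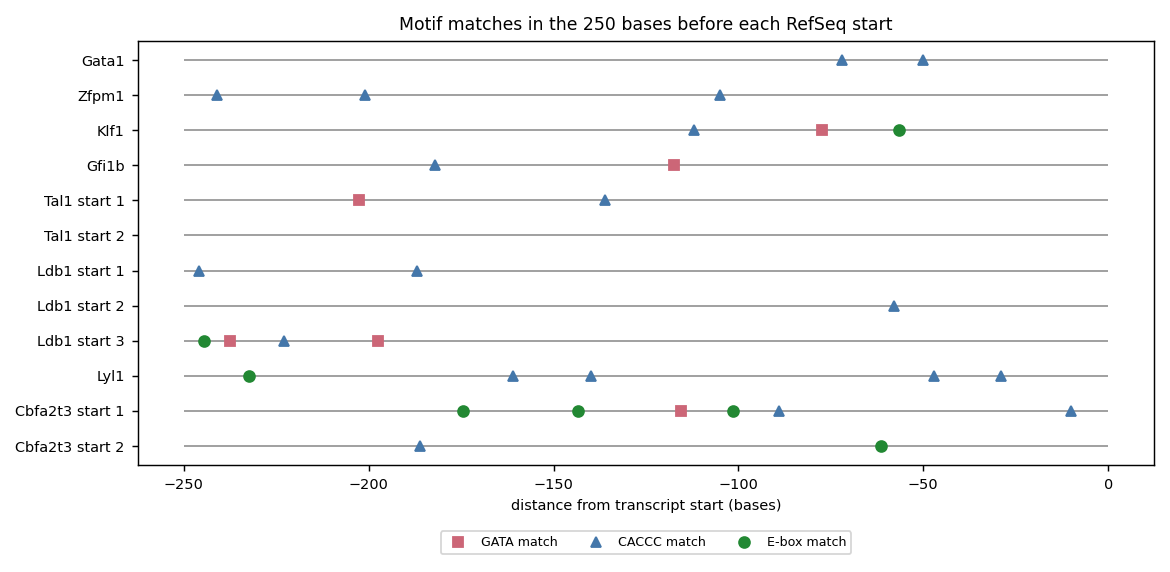
Motif matches in the 250 bases before each of 12 RefSeq starts of 8 factor genes, on either strand; the horizontal axis is the distance from the transcript start in bases and each symbol is 1 match. The Klf1 run holds GATA, CACCC and E-box matches within 114 bases of the start, whereas the Gata1 and Zfpm1 runs hold CACCC matches and no GATA match.

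Klf1 spanned the widest range of the 10 genes over the libraries, and Ldb1 the narrowest. The highest library exceeded the lowest by at least 2-fold in 7 of the 10 members, against 39.4% of 10112 entries. The median range was 1.72 log2 units over the members and 0.87 over all entries. The remaining 3, Tal1, Ldb1 and Cbfa2t3, kept a range under 2-fold. These 3 encode a DNA-binding factor, the bridging protein and the corepressor of the SCL complex, while its LIM protein gene Lmo2 and the TAL1 relative Lyl1 ranged over 2.04 log2 units each.

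**Figure D2:**
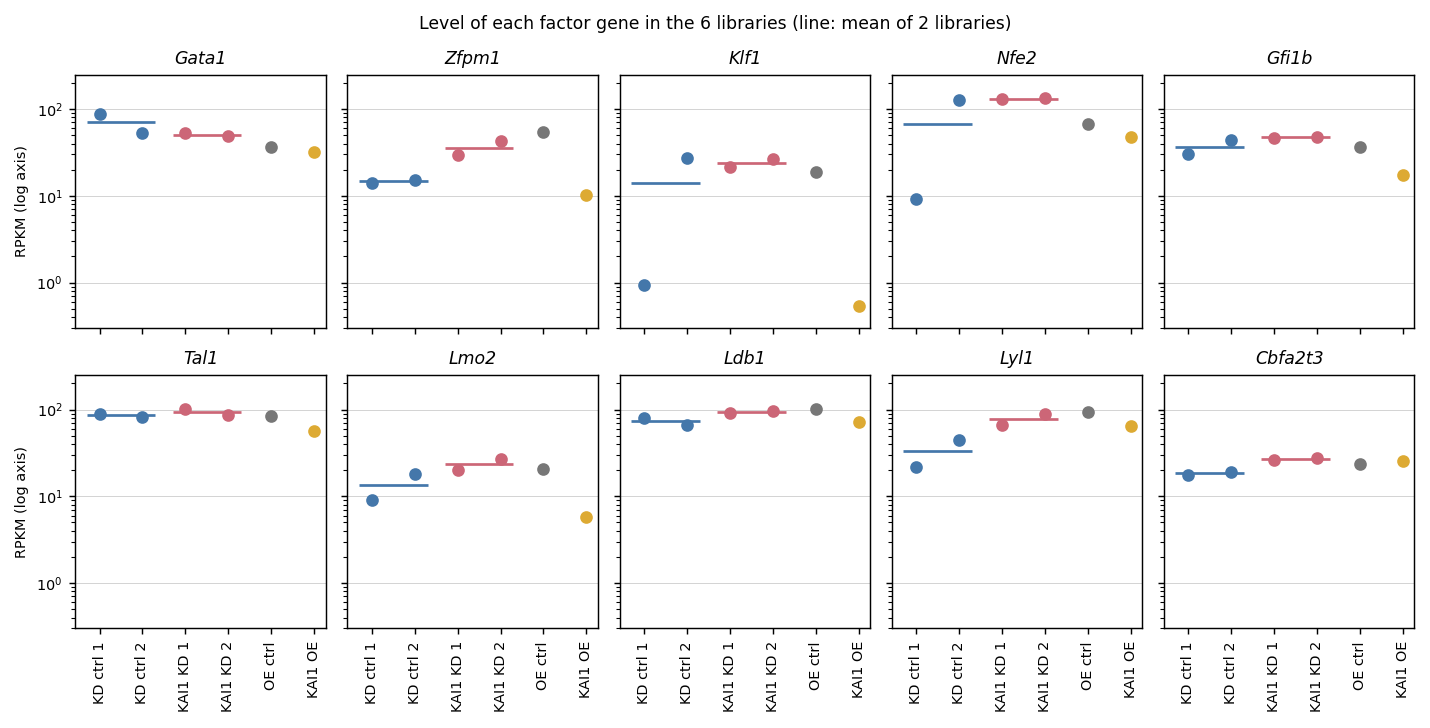
Level of each factor gene in RPKM on a log axis in the 6 libraries; points are libraries, coloured by group, and a line is the mean of the 2 libraries of a group. Klf1 is lowest at 0.949 RPKM (knockdown control replicate 1) and 0.533 RPKM (KAI1 overexpression), and Nfe2 stands at 9.28 RPKM in the former.

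Gata1 (chromosome X, 7536386 to 7544941, mm9 as for all genes below) stood at 87.3 and 53.5 RPKM in the control pair and at 52.6 and 48.6 RPKM in the knockdown pair. Its level was 36.7 RPKM in the overexpression control and 32.3 RPKM in the KAI1 overexpression. The knockdown libraries were the lower ones, but control replicate 2 and knockdown replicate 1 nearly coincided. The group means were 70.4 ± 23.8 and 50.6 ± 2.89 RPKM (SD, n = 2 each), and the log2 difference was -0.43 (SE 0.33; limma adjusted p = 0.83). Without control replicate 1 it was -0.08. Knockdown control replicate 1, the lowest library for Nfe2, Lyl1 and Cbfa2t3, was the highest for Gata1.

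Zfpm1, which encodes FOG1 (chromosome 8, 124806041 to 124861147), stood at 14.2 and 15.3 RPKM in the control pair and at 29.6 and 42.3 RPKM in the knockdown pair. It stood at 53.8 RPKM in the overexpression control, the highest library, and at 10.2 RPKM in the KAI1 overexpression, the lowest. The 2 controls of the knockdown were closer to each other than to either knockdown library, which Gata1 did not show. The means were 14.7 ± 0.787 and 35.9 ± 8.99 RPKM (SD, n = 2 each). Its log2 difference was 1.21 (SE 0.28), and the limma p adjusted over all 10113 entries was 0.83. The log2 ratio in the overexpression arm was -2.29, 4.88-fold lower, with 1 library on each side and no test.

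The ratio of Gata1 to Zfpm1, both as RPKM and so per length, ranged more widely than Gata1 itself. Its values were 6.16 and 3.50 in the control pair, 1.78 and 1.15 in the knockdown pair, 0.681 in the overexpression control and 3.16 with KAI1 overexpressed. FOG1 RNA therefore exceeded that of its partner in the overexpression control alone. Gata2, the GATA factor of progenitors and mast cells, stood at 235 and 91.0 RPKM in the control pair, 74.3 and 128 RPKM in the knockdown pair, 112 RPKM in the overexpression control and 161 RPKM in the KAI1 overexpression. Its ratio to Gata1 was above 1 in every library, from 1.41 in KAI1 knockdown replicate 1 to 4.99 in the KAI1 overexpression, and the knockdown pair, at 1.41 and 2.64, enclosed control replicate 2 at 1.70 and lay below control replicate 1 at 2.69.

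**Figure D3:**
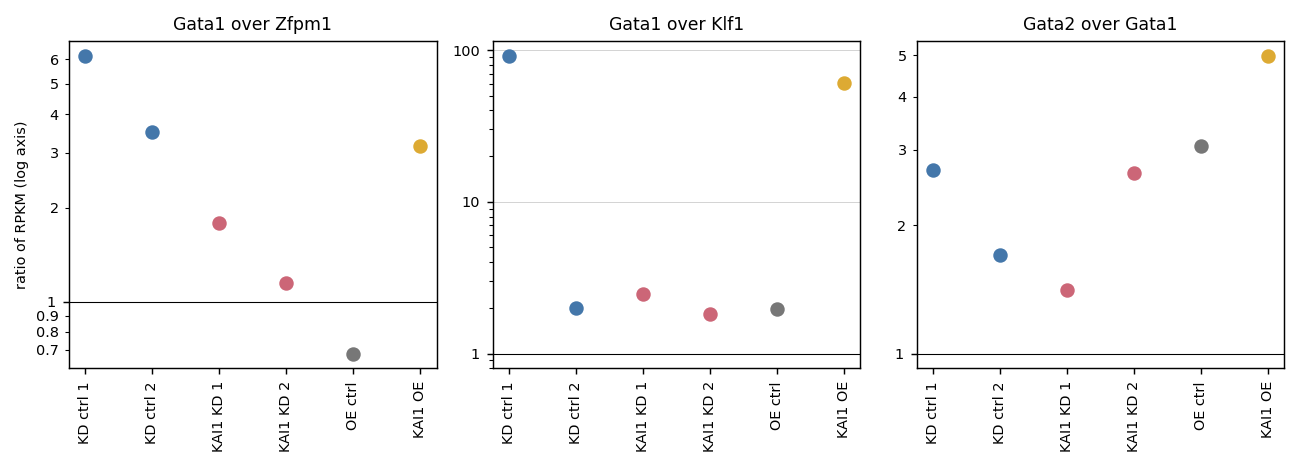
Ratios of RPKM on log axes in each library: Gata1 over Zfpm1, Gata1 over Klf1 and Gata2 over Gata1; each point is 1 library and the black line marks equal levels. Gata1 exceeds Klf1 by 92.0 and 60.7 times in knockdown control replicate 1 and the KAI1 overexpression, against 1.83 to 2.46 times in the other 4.

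Klf1 (chromosome 8, 87425827 to 87429194) stood at 0.949 and 27.0 RPKM in the control pair and at 21.4 and 26.5 RPKM in the knockdown pair. It stood at 18.7 RPKM in the overexpression control and at 0.533 RPKM in the KAI1 overexpression, 12.9-fold lower. At the estimated depth the lowest values correspond to about 26 reads in knockdown control replicate 1 and about 15 reads in the KAI1 overexpression, against about 390 or more in the other libraries. Control replicate 2 was the highest library of all 6, so the groups of the knockdown overlapped, and the log2 difference of 1.75 (SE 1.32; limma adjusted p = 0.83) was smaller in size than that between the 2 controls, -3.84. Without control replicate 1 it was -0.17.

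Nfe2 (chromosome 15, 103078649 to 103085847) stood at 9.28 and 126 RPKM in the control pair and at 131 and 133 RPKM in the knockdown pair. It stood at 67.2 RPKM in the overexpression control and 48.2 RPKM in the KAI1 overexpression. Control replicate 1 was low alone, and control replicate 2 nearly reached the knockdown pair. The log2 difference of 1.88 (SE 1.25; limma adjusted p = 0.83) was 0.063 without control replicate 1. The KAI1 overexpression library had less Klf1 but more Nfe2 than control replicate 1.

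Gfi1b (chromosome 2, 28464970 to 28477502) stood at 30.0 and 44.0 RPKM in the control pair and at 46.5 and 48.1 RPKM in the knockdown pair. It stood at 36.4 RPKM in the overexpression control and at 17.5 RPKM in the KAI1 overexpression, a log2 ratio of -1.02, just past 2-fold. In the knockdown arm the groups did not overlap, with a log2 difference of 0.37 (SE 0.29; limma adjusted p = 0.83). Control replicate 2 lay close under knockdown replicate 1, and the difference was 0.10 without control replicate 1.

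Within the SCL complex the DNA-binding factor gene Tal1 (chromosome 4, 114732132 to 114744360) was level in the control pair, at 89.6 and 81.9 RPKM, and stood at 101 and 85.5 RPKM in the knockdown pair. The groups overlapped, and the log2 difference of 0.12 was smaller than its SE of 0.25 (limma adjusted p = 0.92). Tal1 stood at 83.7 RPKM in the overexpression control and at 57.2 RPKM, its lowest level, in the KAI1 overexpression. Its relative Lyl1 (chromosome 8, 87225356 to 87228615) stood at 21.7 and 45.0 RPKM in the control pair and at 66.6 and 89.4 RPKM in the knockdown pair. The groups did not overlap. The means were 33.4 ± 16.5 and 78.0 ± 16.1 RPKM (SD, n = 2 each), with a log2 difference of 1.27 (SE 0.44; limma adjusted p = 0.83). Leaving out control replicate 1 gave 0.77, and leaving out control replicate 2 gave 1.78. Lyl1 was at 92.5 RPKM in the overexpression control and 64.8 RPKM in the KAI1 overexpression. Tal1 exceeded Lyl1 by 4.13 and 1.82 times in the controls and by 1.52 times in knockdown replicate 1, and lay just under it in the other 3 libraries, at ratios of 0.882 to 0.956.

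Lmo2, which encodes the LIM-only bridge between TAL1 and GATA1 (chromosome 2, 103798152 to 103822035), stood at 9.07 and 18.2 RPKM in the control pair and at 20.1 and 26.8 RPKM in the knockdown pair. It stood at 20.7 RPKM in the overexpression control and 5.79 RPKM in the KAI1 overexpression, a log2 ratio of -1.67. In the knockdown arm the log2 difference was 0.80 (SE 0.40; limma adjusted p = 0.83), with knockdown replicate 1 close above control replicate 2, and it was 0.34 without control replicate 1. Its partner Ldb1 (chromosome 19, 46107091 to 46119701), which brings enhancers and promoters together, stood at 80.2 and 67.1 RPKM in the control pair and at 92.0 and 97.2 RPKM in the knockdown pair. Ldb1 was at 101 RPKM in the overexpression control and 72.1 RPKM in the KAI1 overexpression. The groups did not overlap for Ldb1, with a log2 difference of 0.36 (SE 0.25; limma adjusted p = 0.83). Leaving out control replicate 1 gave 0.49 for Ldb1, and leaving out replicate 2 gave 0.23. The ratio of Ldb1 to Lmo2 was 8.85 in knockdown control replicate 1 and 12.5 in the KAI1 overexpression, against 3.62 to 4.89 in the other 4 libraries.

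Cbfa2t3, the corepressor gene (chromosome 8, 125149036 to 125223009), stood at 17.6 and 19.1 RPKM in the control pair and at 26.5 and 27.6 RPKM in the knockdown pair. It was at 23.6 RPKM in the overexpression control and 25.6 RPKM in the KAI1 overexpression. The spread within each knockdown group was small, with means of 18.4 ± 1.01 and 27.0 ± 0.738 RPKM (SD, n = 2 each), and the groups did not overlap. The log2 difference was 0.54 (SE 0.22; limma adjusted p = 0.83), and from 0.48 to 0.59 with any 1 of the 4 libraries left out. Zfpm1 and Cbfa2t3 were the members for which the controls nearly coincided (log2 differences of -0.10 and -0.11 between them) while the knockdown libraries lay above.

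Of the 10 members, all of which passed the minimum mean of 1 RPKM, limma called 0 in the knockdown, against 0.0297% of the 10113 entries tested. At an unadjusted p under 0.05 there were 2, Zfpm1 and Lyl1, against 3.32% of entries. In 7 members each knockdown library exceeded each knockdown control (Zfpm1, Nfe2, Gfi1b, Lmo2, Ldb1, Lyl1 and Cbfa2t3), against 21.5% of entries. In 1 (Gata1) each lay below, against 17.0%. The overexpression control, also wild-type cells, lay above both knockdown libraries for Zfpm1, Ldb1 and Lyl1, and above knockdown replicate 1 for Lmo2. It lay below both knockdown libraries for Nfe2, Gfi1b and Cbfa2t3, and also for Gata1. The median log2 difference was 0.67 over the members and 0.028 over all entries tested. Without control replicate 1 these medians were 0.26 and 0.031, and without control replicate 2 they were 0.95 and 0.026. Without control replicate 2 limma called 3 members, Nfe2 (adjusted p = 0.0122), Klf1 (adjusted p = 0.0169) and Lyl1 (adjusted p = 0.0414), but it then called 1045 entries in all, and the spread comes from the knockdown pair alone, with the lone control assumed to vary like it. Without control replicate 1 it called 0 members and 16 entries.

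In the overexpression arm 4 members were at least 2-fold lower with KAI1 overexpressed than in the matching control (Klf1, Zfpm1, Lmo2 and Gfi1b), against 5.21% of the 9936 entries compared, and 0 were at least 2-fold higher, against 4.92%. Of the remaining 6, Tal1, Lyl1, Ldb1, Nfe2 and Gata1 had log2 ratios from -0.54 to -0.18, and Cbfa2t3 one of 0.11. The median over the members was -0.52, and over all entries 0.0057. A single library on each side leaves the spread between cultures unknown. In these bulk libraries fewer cells of a type and less RNA per cell cannot be told apart.

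**Figure D4:**
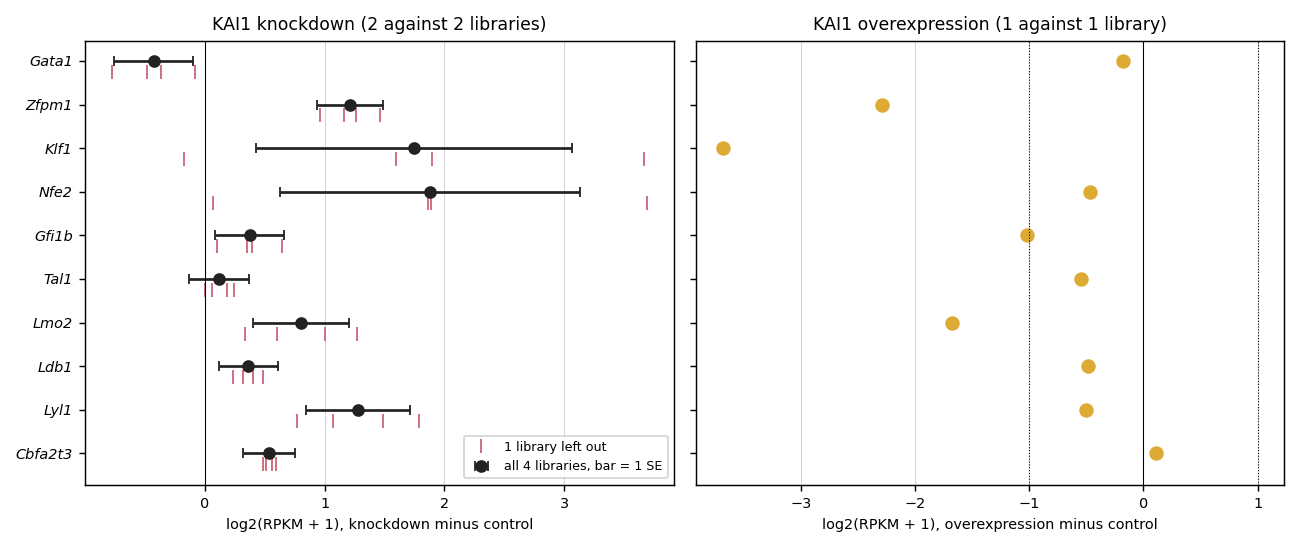
Difference of each factor gene on the log2(RPKM + 1) scale, in the knockdown arm at left (point, 2 against 2 libraries; bar, 1 SE; ticks, the value with 1 library left out) and in the overexpression arm at right (1 against 1 library, no error; dotted lines, 2-fold). The ticks of Klf1 and Nfe2 reach from -0.17 and 0.063 to 3.67 and 3.69, while those of Zfpm1 stay between 0.96 and 1.46.

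Knockdown control replicate 1 and the KAI1 overexpression were the 2 lowest libraries for 5 members (Zfpm1, Klf1, Nfe2, Gfi1b and Lmo2), against 15.3% of 10112 entries, an order chosen after the values were seen. Between the 2 knockdown controls 3 members (Klf1, Nfe2 and Lyl1) were at least 2-fold lower in replicate 1, against 8.50% of entries, and 0 at least 2-fold higher, against 12.7%. Summed over their lists, mast cell and basophil levels were highest and erythroid levels lowest in knockdown control replicate 1 and the KAI1 overexpression. The summed level of 20 mast cell and basophil genes reached 83568 RPKM (knockdown control replicate 1) and 32447 RPKM (KAI1 overexpression), against 20549 RPKM in control replicate 2 and 8491 to 11554 RPKM in the other 3, with Fcer1a listed at 0 in control replicate 2 and knockdown replicate 1. Not each gene followed the sum: Mcpt8, a basophil protease gene of the list, stood at 160 RPKM in knockdown control replicate 1. It stood at 3908 RPKM in the KAI1 overexpression and at 116 to 491 RPKM in the other 4 libraries. Of 19 mast cell and basophil genes tested in the knockdown, limma called 0 and 11 lay below the controls, against 17.0% of all entries. The median log2 difference of -1.30 became -0.59 with control replicate 1 left out and -2.59 with replicate 2 left out. In the overexpression arm 14 of 18 were at least 2-fold higher and 0 lower, against 4.92% and 5.21% of all entries. The summed level of 24 erythroid entries was 123 and 1104 RPKM in these 2 libraries and 3572 to 6321 RPKM in the other 4. A large part of it was the globin gene Hbb-bt, at 57.5 and 624 RPKM, against 1898 to 2304 RPKM in the other 4. Of the erythroid entries 5 and 3 were listed at 0 in these 2 libraries, against 0 or 1 in each of the other 4. The neutrophil and monocyte sum was 1092 and 1428 RPKM in these 2 libraries and 926 to 1734 RPKM in the other 4. Most of it in these 2 was the protease gene Ctsg, at 1080 and 1295 RPKM, against 434 to 1034 RPKM in the other 4. Lyz2 stood at 0.499 and 0.158 RPKM, against 4.66 to 14.7 RPKM. In the overexpression arm 4 of 6 neutrophil and monocyte genes were at least 2-fold lower and 1 higher, against 5.21% and 4.92% of all entries. The megakaryocyte sum was highest in knockdown control replicate 1 (2804 RPKM) and lowest in the KAI1 overexpression (558 RPKM), and so was the lymphoid sum (9.62 and 0.375 RPKM). The lymphoid sum in knockdown control replicate 1 was almost all Il7r, at 9.21 RPKM, and 9 of the 12 lymphoid entries were listed at 0 there. Whether these marker differences bear on the members' values was not tested.

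Genes that these factors are known to act with were taken from a fixed list of 23 partners, of which 21 passed the minimum. limma called 0 of them, 4 lay above both controls, against 21.5% of all entries, and 1 below, against 17.0%. The median log2 difference was 0.16, and 0.37 without control replicate 2. Tcf3, which encodes the E2A partner of TAL1, stood at 22.5 and 20.0 RPKM in the control pair and 30.4 and 40.7 RPKM in the knockdown pair, and at 47.7 and 29.2 RPKM in the overexpression control and the KAI1 overexpression. Tcf12, another E protein gene, was the 1 below, at 20.7 and 17.5 against 13.6 and 16.6 RPKM. Ssbp3, whose protein stabilises LDB1, stood at 14.8 and 20.3 against 23.7 and 29.8 RPKM and at 28.5 and 11.6 RPKM in the overexpression control and the KAI1 overexpression. Bach1, a repressor that competes with NFE2 for small Maf partners, stood at 2.84 and 3.32 against 4.33 and 4.63 RPKM, while the remodeller gene Chd4 stood at 46.9 and 40.6 against 49.2 and 53.0 RPKM. By limma these 5 had adjusted p of 0.83 to 0.85. In the overexpression arm 2 of 21 partners, Ssbp3 and the LIM gene Lmo4, were at least 2-fold lower. None was at least 2-fold higher. The shares over all entries were 5.21% and 4.92%. Mafk and Mafg, the small Maf partner genes of NFE2, stood at 10.2 to 21.1 and 6.93 to 15.9 RPKM over the 6 libraries, each highest in knockdown control replicate 1, where Nfe2 was lowest.

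Of 24 erythroid entries 18 passed the minimum in the knockdown arm; limma called 0, 4 lay above both controls, against 21.5% of all entries, and 1 below, against 17.0%. The median log2 difference of 2.03 became -0.30 with control replicate 1 left out and 3.68 with replicate 2 left out, so its direction rests on control replicate 1. The summed erythroid level was higher in control replicate 2, at 6321 RPKM, than in the knockdown pair, at 4727 and 5476 RPKM. The embryonic globin gene Hbb-y stood at 1.29 and 271 RPKM in the control pair and 330 and 344 RPKM in the knockdown pair. Hemgn, an erythroid nuclear protein gene, stood at 1.52 and 51.4 against 62.9 and 57.8 RPKM. Both had the wide gap between the controls that Klf1 had. Epor, the erythropoietin receptor gene, was the 1 below, at 15.6 and 14.8 against 9.63 and 12.7 RPKM, and was not low in control replicate 1. In the overexpression arm 13 of 14 erythroid entries were at least 2-fold lower and 0 higher, against 5.21% and 4.92% of all entries. Epor stood at 10.4 and 2.27 RPKM and Hbb-y at 90.3 and 1.93 RPKM in control and KAI1 overexpression.

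Of 20 megakaryocyte genes 14 passed the minimum; limma called 0, 3 lay above both controls, against 21.5% of all entries, and 3 below, against 17.0%. The median log2 difference of 0.16 was -0.21 without control replicate 2 and -0.045 without KAI1 knockdown replicate 2. Gp9, a subunit of the von Willebrand factor receptor, stood at 0.959 and 26.9 against 28.3 and 43.6 RPKM and at 29.8 and 0.467 RPKM in the overexpression control and the KAI1 overexpression. Ppbp and Plek were below, at 550 and 31.1 against 21.5 and 26.5 RPKM and at 159 and 58.7 against 40.8 and 42.8 RPKM. In the overexpression arm 3 of 12 were at least 2-fold lower and 1 higher, against 5.21% and 4.92% of all entries. The platelet genes thus did not share 1 direction there, and Itga2b stood at 203 and 215 RPKM.

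The genes whose pattern over the 6 libraries was most like that of a member were found by the mean absolute difference of centred log2(RPKM + 1), among 9885 entries other than members and small RNAs. The 3 nearest to Klf1 were Ffar2 (0.27), Parm1 (0.29) and Gp9 (0.30), which stood at 0.256, 1.32 and 0.959 RPKM in knockdown control replicate 1 and at 0.486, 0.377 and 0.467 RPKM in the KAI1 overexpression. The nearest to Nfe2 were Golm1 (0.28), F2rl3 (0.28) and Ms4a3 (0.29). The nearest to Zfpm1 were the histone genes H2bc9 (0.15) and H2bc13 (0.21) and the stress gene Gadd45b (0.21); reads of such near-identical histone copies may be shared between entries, which leaves their values uncertain. H2bc9 stood at 26.9 and 27.2 RPKM in the control pair, 51.7 and 79.4 RPKM in the knockdown pair, 75.1 RPKM in the overexpression control and 24.7 RPKM in the KAI1 overexpression. Nearest to Gata1 were 2610507I01Rik (0.068), Odr4 (0.079) and Abhd16a (0.079). For Lmo2 the nearest was Actn1 (0.090), for Lyl1 Znrd2 (0.10), for Tal1 Skap2 (0.050), for Ldb1 Arhgap23 (0.036), for Gfi1b Hdac7 (0.073) and for Cbfa2t3 Trmt2a (0.025).

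Ranked by RPKM within a library, Klf1 was the lowest member in 4 libraries, Lmo2 in KAI1 knockdown replicate 1 and Zfpm1 in knockdown control replicate 2. Nfe2 was the highest in control replicate 2 and both knockdown libraries, Tal1 in control replicate 1, and Ldb1 in the overexpression control and the KAI1 overexpression. The median of the 10 members came to 19.7 RPKM (knockdown control replicate 1) and 28.9 RPKM (KAI1 overexpression), against 44.5 to 49.6 RPKM in the other 4 libraries.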

How the data were processed

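The authors deposited 1 table of RPKM per library, per the file headers, with 23170 entries keyed by RefSeq accession and mm9 locus; the submitters' processing notes name mm9, TopHat2 2.0.9, Bowtie and Cufflinks, without settings. Entries repeating an accession and locus (24, of which 20 had identical values) were dropped, and the first of each was kept. Accessions were given symbols by a RefSeq table of GRCm38.p6 (22840) or GENCODE (125). Gene positions are mm9, counted from 1, as deposited. No source used here states strandedness. Relative depth was taken from the commonest ratios of low values, where whole reads leave steps. Of 15 pairs of libraries 15 agreed through the reference within 0.5%, after allowing a factor of 2 either way. Pairs that include the reference agree by construction, so only the other pairs are a check. Absolute depth was taken from transcript lengths in 176 entries (18200000 reads in knockdown control replicate 1, quartiles 15600000 and 19300000). Both procedures and the test were run on simulated data, with no pass mark set for the absolute depth. The simulation of the test used the same small spread for all entries, unlike that between the knockdown controls. It therefore does not show how the test performs at the spread of these data. Whole reads could not be recovered for all entries, so counts were not tested.

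limma 3.58.1 (R 4.3.3), with its trend option, compared the knockdown pair with the control pair on log2(RPKM + 1), over entries averaging 1 RPKM or more, two-sided, with Benjamini-Hochberg adjustment over all entries and a threshold of 0.05. Folds are on the RPKM + 1 scale, which understates changes of low genes. The overexpression arm has 1 library a side and no test. Alternatives were a pseudocount of 0.1, no filter, quantile normalization, summed entries, a replicate block and leaving out each library; leaving out each library for the medians over lists was added after seeing the data. The members and lists were chosen with earlier results of these data known. Named from each list were at most 5 genes with the largest difference among those whose groups did not overlap, and 3 pattern neighbours per member. Some genes that this rule selects are not reported here. Other genes (Gata2, Lmo4, Mafk, Mafg, Itga2b and lineage markers) were chosen after their values were seen. Hba-a1 and Ahsp had no entry matched by symbol. Promoter windows were read from a RefSeq table on GRCm38.p6.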

Additional observations from a re-analysis of the deposited data

How the results depend on the processing

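For the members, the counts at 2-fold in the overexpression arm were the same with a pseudocount of 0.1 and with quantile normalization (4 lower, 0 higher). Dropping the filter or summing entries could not change them, as each member passed the filter and had 1 entry. With 1 library left out, 7 or 8 members lay above each control kept, against 29.2% to 44.2% of all entries. The number below was 1 to 2, against 25.7% to 41.3%. With no library left out these shares of all entries were 21.5% and 17.0%, so the criterion is easier to meet with fewer libraries. Members called by limma numbered 0 to 3 with 1 library left out, the 3 being those without knockdown control replicate 2 (without control replicate 1 the smallest adjusted p was 0.41), and 0 under each alternative that kept all libraries, with adjusted p of at least 0.83. Calls among all entries were 3 in the fit as reported, 5 with a pseudocount of 0.1, 0 with no filter on low values (683 at an unadjusted p under 0.05), 2 with quantile normalization, 4 with the replicate block and 0 to 1045 with 1 library left out. With 1 library left out the log2 difference of Klf1 ranged from -0.17 (without knockdown control replicate 1) to 3.67 (without control replicate 2), and that of Tal1 from -0.0034 (without KAI1 knockdown replicate 1) to 0.24, so both signs turned. Same-numbered libraries share only their number, with no stated pairing: the deviations of same-numbered libraries had a correlation of -0.075 across 10113 entries, and with the replicate block 0 members were called (adjusted p = 0.9989 for each). A group of 2 libraries, with controls as far apart as these, limits what the test can show for Klf1 and Nfe2.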

Other observations

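Transcription factors of other blood lineages, 30 genes in a list, gave values beside those of the members. Of 20 entries averaging 1 RPKM or more in the knockdown arm, limma called 0, 6 lay above both controls, against 21.5% of all entries, and 2 below, against 17.0%. The median log2 difference of 0.25 was 0.048 without knockdown control replicate 2. Id2, whose protein binds E proteins and keeps them from DNA, stood at 379 and 92.2 RPKM in the control pair, 51.3 and 64.9 RPKM in the knockdown pair, 55.9 RPKM in the overexpression control and 134 RPKM in the KAI1 overexpression. Myb, a factor of progenitor growth, stood at 48.5 and 139 RPKM against 176 and 145 RPKM, and at 161 and 82.2 RPKM in the overexpression arm. Stat5a, which acts below the erythropoietin receptor, stood at 27.4 and 50.9 against 53.4 and 69.9 RPKM, Etv6 at 15.7 and 21.2 against 25.2 and 24.6 RPKM, and Meis1 at 0.120 and 0.924 against 1.18 and 2.88 RPKM. By limma these 5 had adjusted p of 0.83.

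Spi1, which encodes PU.1, a factor that opposes GATA1, stood at 36.4 and 16.1 RPKM in the control pair, 31.9 and 35.6 RPKM in the knockdown pair, 46.1 RPKM in the overexpression control and 52.5 RPKM in the KAI1 overexpression. Mitf, a mast cell factor, was highest in knockdown control replicate 1 (13.6 RPKM) and the KAI1 overexpression (9.38 RPKM), against 2.61 to 4.61 RPKM in the other 4 libraries, the 2 libraries with the least Klf1. Spi1 and Mitf were chosen after their values were seen. Klf3, a repressor that binds the same CACCC motifs as KLF1, was highest in knockdown control replicate 1 (9.48 RPKM) and lowest in the KAI1 overexpression (0.739 RPKM), so the 2 libraries that had little Klf1 stood at the opposite ends for Klf3. It too was chosen after its values were seen.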
